A study of Mus musculus with 12 samples.

Results

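The comparison of bleomycin with saline in mouse lung macrophages whose interleukin 4 receptor alpha chain is intact rests on 8 of the 12 libraries of the series. They were chosen by their titles: 4 libraries of saline-treated and 4 of bleomycin-treated IL4Ra WT animals, called saline WT and bleomycin WT. The other 4 libraries, from bleomycin-treated IL4Ra KO animals, enter only the estimate of the spread and a few side-by-side values. All 12 are labelled as Cx3cr1+ macrophages of lung tissue. No saline library with the deletion is among the samples. Il4ra, which checks these labels, was at 111, 32.4, 262 and 302 CPM in saline WT 1 to 4 and 351, 626, 302 and 138 CPM in bleomycin WT 1 to 4, and at 473, 277, 235 and 343 CPM in the libraries labelled KO, within the range of bleomycin WT. The counts cover the whole gene, and at that level Il4ra does not tell the KO libraries from bleomycin WT. The reason was not tested. The labels give no strain, age, sex, bleomycin dose, route or day of collection. They name no Cre line or promoter for the deletion, and they do not say how the cells were sorted or whether a library is 1 animal or a pool. The p-values are thus set against variation between libraries, part or all of which may be technical. The question addressed is which transcripts differ in these cells after the injury.

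Bleomycin is a DNA-damaging drug that injures the lung epithelium and is widely used to model fibrosis in mice. The healthy lung holds alveolar macrophages, which clear surfactant from the air spaces, interstitial macrophages in the tissue, and monocytes in its vessels. After injury, monocytes enter the tissue and mature into macrophages, which are known to pass through a lipid-laden, lysosome-rich state marked by Spp1, Gpnmb and Trem2. Cx3cr1 encodes the fractalkine receptor, carried by non-classical monocytes, interstitial macrophages and the macrophages that arise from monocytes. Its use as a label covers several of these cells at once.

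Library quality differed between the groups. Total counts lay between 60598 and 10168525 in saline WT and between 9600870 and 18051113 in bleomycin WT. Saline WT 2 was the shallow library, with counts for 4830 genes, where 3 counts come to 32.4 CPM (CPM are counts scaled for library size). It had the highest scaling factor of the 12 libraries, 1.54, and bleomycin WT 4 the lowest, 0.579. The highest Spearman correlation of a library with any of the other 11 (a correlation across genes, which are no replicates) was 0.498 for saline WT 2, the lowest of all, 0.658 for saline WT 1, and 0.865 and 0.900 for saline WT 4 and 3. It was 0.730 for bleomycin WT 4 and 0.956 to 0.987 for the other bleomycin WT libraries. Within the own group the highest was 0.495 for saline WT 2 and 0.865 for saline WT 3. It was 0.953 for bleomycin WT 1 and 3 and 0.947 for bleomycin WT 2. These libraries were thus nearest to a library of another group. Calls, fold changes and list medians are given without saline WT 2 and bleomycin WT 4 (6 libraries) and with all 8. The 2 libraries to leave out were set when the comparison was defined, with earlier results of these data known. Saline WT 1 was kept, though its 0.658 lay below the 0.730 of bleomycin WT 4. The 18 markers set for Cx3cr1+ macrophages (among them Csf1r, Adgre1, Cd68, Lyz2 and the C1q genes) were at 0 counts in no group and summed to 46172, 21759.6, 45035 and 38636 CPM in saline WT 1 to 4 and 67852, 64690.3, 72087 and 48475 CPM in bleomycin WT 1 to 4. Cx3cr1 itself was low after bleomycin, with 196, 940.4, 136 and 98.1 CPM in saline and 53.5, 113, 53.7 and 7.46 CPM after bleomycin, and did not pass the test (log2 fold change -2.54 with 8 libraries and -0.999 with 6).

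With all 8 libraries, 4 genes rose after bleomycin and 0 fell among 16679 tested, which is 0.024% of the genes (edgeR's quasi-likelihood test on all 12 libraries, Benjamini-Hochberg adjusted p under 0.05). An unadjusted p under 0.05 was found for 2444 genes, and other settings called falls. There was 1 in limma-voom and 169 in limma-voom with quality weights. With no filter on low counts, over 40764 genes, there were 422 in edgeR and 440 in DESeq2, which was run only in that way. Without saline WT 2 and bleomycin WT 4, 81 of 18812 genes passed, or 0.431%. Of these 54 rose (0.287%) and 27 fell (0.144%), the 4 genes of the first fit were among them, and all 81 had the same sign in both fits. Below, "rose" and "fell" refer to the fit with 6 libraries of the comparison, and fold changes are log2 values of that fit, unless another fit is named. The excess of rises depended on the setting. Among the 6 libraries there were 45 rises and 38 falls with DESeq2's size factors (RLE scaling), 48 and 47 with limma-voom and 238 and 44 with no filter on low counts. Falls were the more numerous at a mean of at least 10 CPM (92 rises and 133 falls), with quality weights (101 and 208) and in DESeq2 with no filter on low counts (500 and 920). RLE scaling also moved the median of all genes from -0.14 to -0.23. In the fit with 8 libraries, where that median is 0.08, the adjusted p of the other 50 rises ranged from 0.0853 to 0.475 and that of the 27 falls from 0.101 to 0.867.

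Both counts depended on single libraries and on the libraries with the deletion. Leaving out saline WT 1 as well raised the 81 calls to 522 of 20910 (2.5%), with 305 rises (1.46%) and 217 falls (1.04%). That fit sets saline WT 3 and 4 alone against bleomycin WT 1 to 3. List members called in it are named below, but it is the only omission that added calls. The count was 73 without saline WT 3, 24 without saline WT 4, and 24, 21 and 4 without bleomycin WT 1, 2 and 3. It was 41, 28, 24 and 30 without bleomycin KO 1 to 4. A fit on the WT libraries alone called 0 genes, with 8 libraries (1473 at an unadjusted p under 0.05) and with 6 (1848), so that calls were made only with the libraries labelled KO in the fit. With all 8 libraries, the 4 calls became 11 without bleomycin WT 4. They became 2 without saline WT 1, saline WT 2 or any 1 bleomycin KO library, 3 without bleomycin WT 1, and 1 when number 3 or 4 of saline WT or number 2 or 3 of bleomycin WT was left out. In simulated counts with these means and library sizes, only genes above the median abundance were changed. The fit with 6 libraries recovered 29% of those changed 4-fold and 80% of those changed 16-fold, so a gene that did not pass is not shown to be unchanged. Recovery of less abundant genes was not measured, and no outlying library was simulated.

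**Figure D1:**
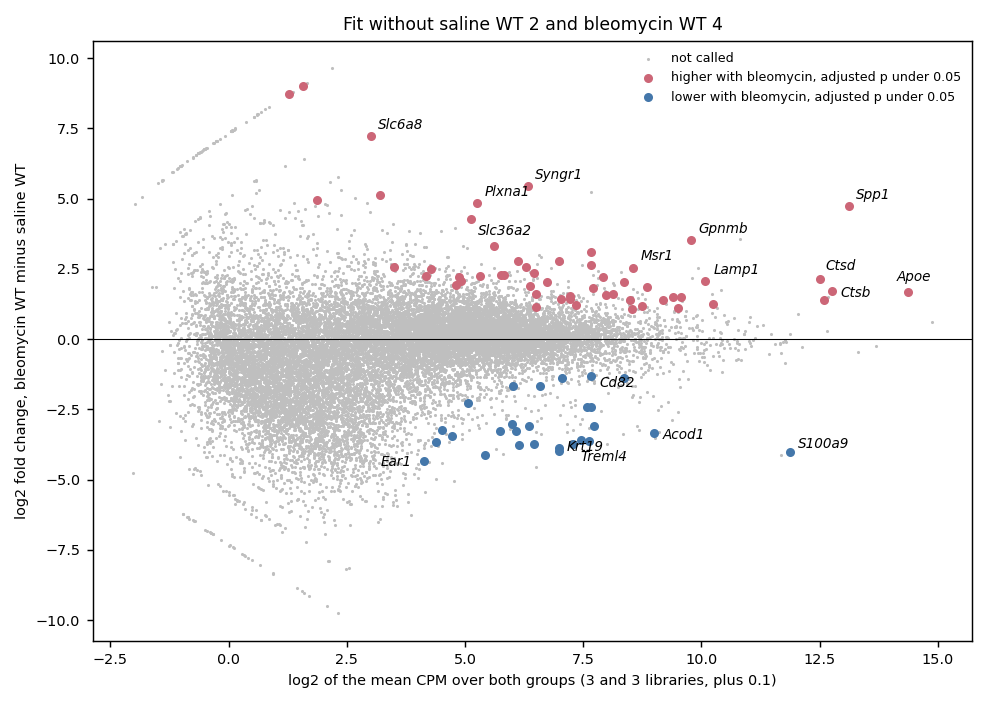
Log2 fold change of bleomycin WT against saline WT (vertical axis) against the log2 of the mean CPM over both groups (horizontal axis) for each of the 18812 genes tested without saline WT 2 and bleomycin WT 4 (points). The 54 genes that rose are red, the 27 that fell are blue and the rest are grey; Spp1, Ctsd, Ctsb and Apoe are the named risers at the right, and S100a9 is the fall at the highest level.

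Genes of the scar-associated macrophage programme were 3 of the 4 that rose in both fits. Spp1, Gpnmb and Syngr1 were higher in all 4 bleomycin WT libraries than in any saline library, as were 4.93% of all genes tested. Of the programme's 20 genes, 9 rose, 0 fell and 18 had a fold change above 0; their median was 1.50, beside -0.14 over all genes tested (1.43 and 3 rises with 8 libraries). This list was chosen with results of these libraries known, and it is no independent evidence of a direction. Among the called genes, the largest fitted fold changes were those of Sapcd2, Gm37035 and Slc6a8, which are not in the list and stood at no more than 0.145 CPM in any saline library.

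Spp1 (ENSMUSG00000029304, chromosome 5 from 104435118 to 104441050 in GRCm38) encodes osteopontin, a secreted protein that binds integrins and CD44. It stood at 1159, 162, 447 and 278 CPM in saline WT 1 to 4 and 11236, 11209.5, 28753 and 2723 CPM in bleomycin WT 1 to 4. The lowest bleomycin library, number 4, was still above the highest saline library, number 1 (with 6 libraries log2 fold change 4.72, SE 0.59, adjusted p 0.0169; with 8 libraries 4.71, SE 0.70, adjusted p 0.0433). Gpnmb (ENSMUSG00000029816, chromosome 6 from 49036546 to 49070929) encodes a transmembrane glycoprotein of lysosome-rich macrophages and osteoclasts. It stood at 210.1, 97.3, 107 and 93.7 CPM in saline and 783, 2313, 1788 and 501 CPM after bleomycin and rose in both fits (log2 fold change 3.53, SE 0.45, adjusted p 0.0169; with 8 libraries 3.39, SE 0.53, adjusted p 0.0460). Syngr1 (ENSMUSG00000022415, chromosome 15 from 80091334 to 80119501) encodes a vesicle membrane protein of the synaptogyrin family. It went from 3.16, 0, 5.23 and 2.03 CPM in saline to 103, 139, 226 and 422 CPM after bleomycin (log2 fold change 5.44, SE 0.44, adjusted p 0.00159; with 8 libraries 6.04, SE 0.69, adjusted p 0.00278). Bleomycin WT 4 thus held the lowest Spp1 and Gpnmb of its group and the highest Syngr1.

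The rest of the programme that rose covers lipid sensing, lipid carriage and matrix cleavage. Trem2, a receptor for lipids and lipoproteins, stood at 183, 368, 95.5 and 101 CPM in saline and 482, 427, 671 and 338 CPM after bleomycin. Without the shallow saline library and bleomycin WT 4 the groups did not overlap (log2 fold change 2.02, SE 0.29, adjusted p 0.0217, with 8 libraries 1.41, adjusted p 0.234), while with all 8 the 368 CPM of saline WT 2 lay above bleomycin WT 4. Msr1, the class A scavenger receptor, was at 92.7, 64.9, 137 and 95.7 CPM in saline and 437, 488, 996 and 285 CPM after bleomycin, with no overlap among the 8 libraries (log2 fold change 2.54, SE 0.32, adjusted p 0.0169, with 8 libraries 2.47, adjusted p 0.101). Apoe, the lipoprotein that carries cholesterol out of macrophages, was already among the most abundant transcripts in saline and stood at 13309, 4853, 6950.2 and 9425 CPM in saline and 26898, 30645, 38859.9 and 21379 CPM after bleomycin (log2 fold change 1.67, SE 0.26, adjusted p 0.0314, with 8 libraries 1.77, adjusted p 0.101). All 8 libraries kept the groups apart for Apoe and Msr1. Fabp5, a fatty acid binding protein, rose by 2.24 (with 8 libraries 2.10, adjusted p 0.216). Il1rn, the interleukin 1 receptor antagonist, rose by 1.10 (with 8 libraries 1.46, adjusted p 0.219) and lay above saline in all 4 libraries. Mmp14, a membrane-bound metalloproteinase, rose by 3.09 (with 8 libraries 2.96, adjusted p 0.219) among the 6 libraries, but bleomycin WT 4 had 9.24 CPM, below 3 of the 4 saline libraries. Mmp12, the macrophage elastase, stood at 502, 43.2, 157 and 184 CPM in saline and 1529, 1138, 2306 and 4868 CPM after bleomycin and did not pass (2.52, adjusted p 0.0540, with 8 libraries 3.44, adjusted p 0.101). Cd9, a tetraspanin, did not pass either (-0.17, adjusted p 0.747, with 8 libraries 0.51, adjusted p 0.672).

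**Figure D2:**
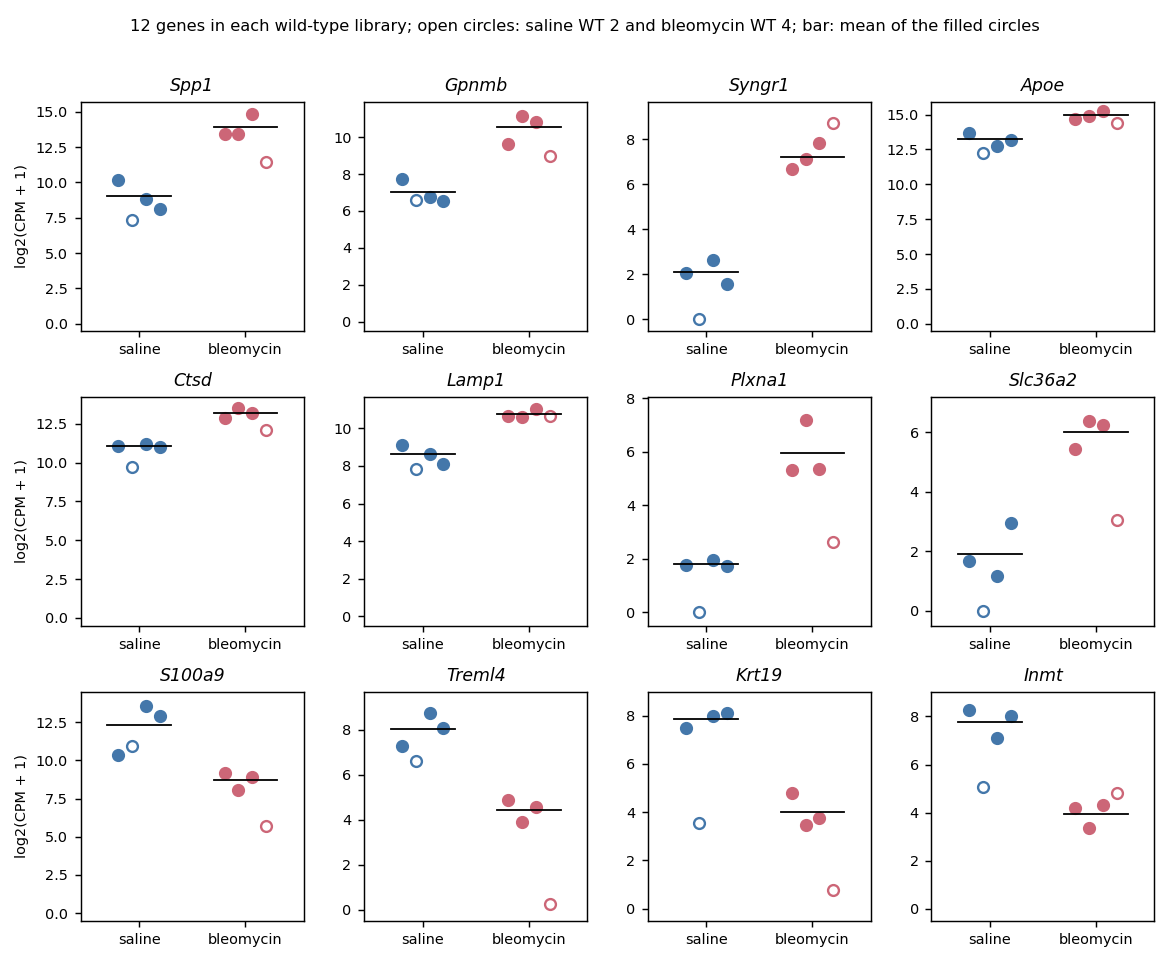
TMM-scaled log2(CPM + 1) of 12 genes in each saline WT and bleomycin WT library (points, labelled groups on the horizontal axis), with saline WT 2 and bleomycin WT 4 drawn open and bars at the mean of the filled points. Spp1, Gpnmb and Syngr1 have all bleomycin points above all saline points, and bleomycin WT 4 is the lowest of its group for Spp1 and Gpnmb.

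Several lysosomal proteases and a lysosomal membrane protein rose. Of 13 cathepsin genes tested, 3 rose and 0 fell (median 0.81, 0.90 with 8 libraries), and of 34 genes of the MiT/TFE transcription factors and the lysosome genes they are known to drive, 2 rose, 0 fell and 28 lay above 0 (median 0.72, 0.97 with 8 libraries). The risers of the first group were Ctsd, Ctsb and Ctss, and those of the second Lamp1 and Tpp1. No gene of either group passed with 8 libraries.

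Ctsd, the main aspartic protease of the lysosome, held 2105, 832, 2311 and 2007 CPM in saline WT 1 to 4 and 7599, 11715, 9124 and 4382 CPM in bleomycin WT 1 to 4, and every bleomycin library lay above every saline library (log2 fold change 2.12, SE 0.18, adjusted p 0.00159, with 8 libraries 2.17, adjusted p 0.0853). Ctsb, a cysteine protease, was at 2844, 940.4, 3492 and 3281 CPM in saline and 8003, 10816, 12841 and 8201 CPM after bleomycin (log2 fold change 1.70, SE 0.19, adjusted p 0.0154, with 8 libraries 1.91, adjusted p 0.102). Lamp1, a heavily glycosylated protein of the lysosomal membrane, was at 543, 227, 404 and 275 CPM in saline and 1629.8, 1539.8, 2050.2 and 1586 CPM after bleomycin (log2 fold change 2.06, SE 0.30, adjusted p 0.0217, with 8 libraries 2.22, adjusted p 0.0853). For these 3 genes, and for Ctss, the groups stayed apart in all 8 libraries. Ctss, a cysteine protease that trims the MHC class II invariant chain, rose by 1.39 (with 8 libraries 1.36, adjusted p 0.162). Tpp1, the lysosomal tripeptidyl peptidase, rose by 1.06 (with 8 libraries 1.02, adjusted p 0.475) among the 6 libraries, while bleomycin WT 4 held 42.7 CPM against 208, 247 and 259 in saline WT 1, 3 and 4. Ctsl (2.16, adjusted p 0.0686, with 8 libraries 2.30, adjusted p 0.174) and Lgmn, the asparaginyl endopeptidase (1.59, adjusted p 0.0618, with 8 libraries 1.68, adjusted p 0.174), did not pass. When saline WT 1 was left out too, 6 cathepsins (Ctsb, Ctsd, Ctsh, Ctsl, Ctss and Ctsz) and 6 genes of the lysosome list rose, among them Fnip2, Lamp1, Lgmn, Npc2 and Tpp1. Acp5, the tartrate-resistant acid phosphatase, rose by 1.60 (with 8 libraries 2.03, adjusted p 0.219) and was the 1 riser of 16 osteoclast-like genes. Of 20 subunits of the proton pump that acidifies the lysosome, 0 passed (median 0.23, 0.76 with 8 libraries).

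The MiT/TFE factors read the E box CACGTG, so the promoters of Lamp1 and Ctsd, the lysosomal risers found to hold it, are shown. They are the 250 bases before the first listed start in RefSeq (GRCm38.p6), read 5′ to 3′ on the gene's strand, with the matches in capitals. The promoter of Lamp1 lies at chr8:13158911-13159160 on the plus strand, with 4 matches that begin 61, 45, 28 and 15 bases before the start. That of Ctsd lies at chr7:142387828-142388077 on the minus strand, with matches 245 and 98 bases before the start.
Lamp1: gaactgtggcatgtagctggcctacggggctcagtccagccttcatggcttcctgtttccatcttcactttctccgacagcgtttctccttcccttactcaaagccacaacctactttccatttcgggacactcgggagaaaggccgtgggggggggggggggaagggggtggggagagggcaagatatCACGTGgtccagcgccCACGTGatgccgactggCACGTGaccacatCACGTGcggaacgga
Ctsd: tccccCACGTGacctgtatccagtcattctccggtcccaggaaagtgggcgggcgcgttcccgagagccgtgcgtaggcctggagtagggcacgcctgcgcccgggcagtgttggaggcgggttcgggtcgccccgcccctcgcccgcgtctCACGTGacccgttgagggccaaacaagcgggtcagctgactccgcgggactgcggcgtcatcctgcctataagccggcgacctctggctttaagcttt
Over windows from 250 bases before to 50 bases after the start, this E box (the same on both strands) was in 3 of the 36 risers with a promoter in the table (Ctsd, Lamp1 and Pdpn), or 8.33%, beside 9.59% of the 11965 promoters of all genes tested. It was in 0 of 24 falls. In the lysosome list, called or not, it was in 8 of 29 promoters (27.6%), and in 3 of 9 cathepsin promoters (33.3%). The lysosome list holds genes known to be driven by factors that read this E box. Its share is thus tied to how the list was made and is no result of bleomycin. The AP-1 motif TGANTCA was in 5 of 36 risers (13.9%; Ccl9, Exoc5, Gpnmb, Il1rn and Trem2) and in 5.56% of the promoters of all genes tested. The antioxidant response element TGACNNNGC was in 9 of 36 (25.0%) against 14.7%. These are matches of letters, on both strands, and describe no binding.

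Few secreted factors and matrix enzymes passed. Of 24 growth factors that act on fibroblasts and epithelium, 2 rose and 0 fell (median 0.39, 0.46 with 8 libraries), and of 30 matrix proteins and matrix-modifying enzymes 2 rose and 0 fell (median 0.62, 0.76 with 8 libraries). Gdf3, a ligand of the TGF-beta superfamily, was at 29.4, 0, 14.97 and 22.01 CPM in saline and 100.2, 185, 113 and 21.5 CPM after bleomycin (log2 fold change 2.55, SE 0.46, adjusted p 0.0487, with 8 libraries 2.44, adjusted p 0.219). Osm, oncostatin M, an interleukin 6 family cytokine that acts on stromal cells, was at 297, 10.8, 489 and 384 CPM in saline and 1081, 1349, 926 and 728 CPM after bleomycin and all 4 bleomycin libraries lay above all 4 saline libraries (log2 fold change 1.50, SE 0.27, adjusted p 0.0478, with 8 libraries 1.76, adjusted p 0.248). Timp2, a metalloproteinase inhibitor, was at 253, 324, 173 and 165 CPM in saline and 613, 758, 803 and 102 CPM after bleomycin: 3 bleomycin libraries lay above and number 4 below every saline library (log2 fold change 1.85, SE 0.25, adjusted p 0.0169, with 8 libraries 1.33, adjusted p 0.282). Adam9, a membrane metalloproteinase-disintegrin, rose by 1.81 (with 8 libraries 1.73, adjusted p 0.174) and was above saline in all 4 libraries. Lrpap1, the chaperone of LDL receptor-related proteins, rose by 1.58 (with 8 libraries 1.74, adjusted p 0.177) in the same way.

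Several growth factors were high in some bleomycin libraries and did not pass. Igf1, insulin-like growth factor 1, was at 167, 54.05, 63.8 and 115 CPM in saline and 219, 205, 275 and 2265 CPM after bleomycin, so that bleomycin WT 4 stood far above the rest (0.98, adjusted p 0.230, with 8 libraries 2.85, adjusted p 0.201). Areg, amphiregulin, was at 35.5, 64.9, 34.8 and 37.5 CPM in saline and 133, 79.9, 75.2 and 161 CPM after bleomycin (1.40, adjusted p 0.0522, with 8 libraries 1.46, adjusted p 0.229). Inhba, the activin A subunit, was at 0.486, 0, 5.95 and 3.33 CPM in saline and 16.9, 16.4, 46.2 and 69.3 CPM after bleomycin (2.96, adjusted p 0.110, with 8 libraries 3.55, adjusted p 0.181). Fn1, fibronectin, ranged from 441 to 7591 CPM after bleomycin and from 184 to 422 CPM in saline (3.56, adjusted p 0.110, with 8 libraries 3.07, adjusted p 0.201). Tgfb1 did not pass either (0.33, adjusted p 0.772, with 8 libraries 0.33, adjusted p 0.822). Without saline WT 1 as well, 6 of the 24 rose: Areg, Gdf3, Igf1, Inhba, Osm and Pdgfc.

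Ccl9, a chemokine of the CC family, was the 1 riser of 27 chemokines. The list as a whole did not lie higher: 9 of the 27 were above 0 (median -0.26, -0.30 with 8 libraries), and the median was above 0 in 5 of 18 alternatives with 6 libraries. Ccl9 was at 375, 346, 364 and 302 CPM in saline and 952, 803, 1227 and 862 CPM after bleomycin, with no overlap in 8 libraries (log2 fold change 1.49, SE 0.21, adjusted p 0.0187, with 8 libraries 1.47, adjusted p 0.174). Ccrl2, a chemerin-binding receptor, rose by 1.26 (with 8 libraries 1.60, adjusted p 0.219) and was above saline in all 4. Il7r, the interleukin 7 receptor chain, which is also a lymphocyte marker, was at 34.8, 21.6, 38.8 and 29.5 CPM in saline and 129, 100.3, 159 and 146 CPM after bleomycin (log2 fold change 1.89, SE 0.25, adjusted p 0.0169, with 8 libraries 2.04, adjusted p 0.162), again with no overlap. Its rise was the only call among 18 T and NK cell markers, which together stood at 664, 400.0, 646 and 836 CPM in saline WT 1 to 4 and 812, 537, 933 and 1603 CPM in bleomycin WT 1 to 4. The part of such cells in this rise was not tested.

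Further risers of the cell surface were single genes, set side by side here after their values were seen and not as a tested group. Clec4n, or dectin-2, a receptor for fungal mannans, rose by 1.38 (with 8 libraries 1.54, adjusted p 0.174). Fcgr1, the high-affinity Fc gamma receptor, rose by 1.43 (with 8 libraries 1.39, adjusted p 0.289). Mfge8, a bridge between phagocytes and dying cells, rose by 2.34 (with 8 libraries 1.74, adjusted p 0.237). Clec4n was above saline in all 4 libraries, but Fcgr1 stood at 41.8 CPM and Mfge8 at 43.7 CPM in bleomycin WT 4, within the saline range. Msr1 and Mfge8 were the 2 risers of 29 complement and scavenger receptor genes (median 0.28, 0.75 with 8 libraries). Of 12 toll-like receptors 0 passed. Trem3, Treml4 and Siglece, which are also innate receptors, fell. Lat2, an adaptor of Fc receptor signalling, rose by 1.20 (with 8 libraries 1.96, adjusted p 0.201). Pdpn, podoplanin, was at 17.3, 0, 3.998 and 5.504 CPM in saline and 58.6, 92.7, 114 and 279.5 CPM after bleomycin (log2 fold change 3.29, SE 0.54, adjusted p 0.0371, with 8 libraries 4.06, adjusted p 0.0915), and its 4 bleomycin libraries lay above all of saline. Flrt3, a cell-surface protein that binds latrophilins and Unc5 receptors, was also apart in all 8 (12.9, 0, 33.01 and 49.7 CPM in saline and 257, 222, 182 and 253 CPM after bleomycin; 2.77, with 8 libraries 3.06, adjusted p 0.101). Plxna1, a receptor for semaphorins, was at 2.43, 0, 2.87 and 2.32 CPM in saline and 38.7, 144, 39.4 and 5.15 CPM after bleomycin (log2 fold change 4.83, SE 0.66, adjusted p 0.0169, with 8 libraries 4.53, adjusted p 0.146), the 1 riser of 30 plexins, semaphorins and neuropilins. The median of these was -0.84 (-0.78 with 8 libraries) but 0.14 at a mean of at least 10 CPM (0.64 with 8 libraries), a filter that leaves out their low-count members.

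Transporters and metabolic enzymes rose singly. Slc6a8 (ENSMUSG00000019558, chromosome X from 73673150 to 73682502), the creatine transporter, had 2 counts in the 4 saline libraries and 651 in the 4 bleomycin libraries, a ratio of 154 after scaling (95% exact interval 42.4 to 1273, counting error only). Without the 2 libraries it had 2 and 627 counts, a ratio of 167 (46.0 to 1382). Its level was 0, 0, 0.103 and 0.145 CPM in saline and 8.29, 15.9, 23.3 and 4.27 CPM after bleomycin, and its adjusted p was 0.0169 with 6 and 0.0460 with 8 libraries. A library as shallow as saline WT 2 cannot show such levels. Slc36a2, a proton-coupled amino acid transporter, was at 2.19, 0, 1.23 and 6.66 CPM in saline and 42.7, 81.4, 74.7 and 7.29 CPM after bleomycin (log2 fold change 4.28, SE 0.58, adjusted p 0.0169, with 8 libraries 4.00, adjusted p 0.157). Slc27a1, a fatty acid transport protein, rose by 2.78 (with 8 libraries 2.62, adjusted p 0.219). These were the 3 calls among 264 solute carriers, whose median was 0.01 (0.22 with 8 libraries) and below 0 in 8 of 18 alternatives with 6 libraries. Psat1, an enzyme of serine synthesis, rose by 2.24 (with 8 libraries 2.07, adjusted p 0.239). Cndp2, a cytosolic dipeptidase, rose by 1.18 (with 8 libraries 1.37, adjusted p 0.201). Afg3l2, a protease of the inner mitochondrial membrane, rose by 2.29 (with 8 libraries 2.13, adjusted p 0.239). In bleomycin WT 4, Slc27a1 (12.3 CPM), Psat1 (5.86 CPM) and Afg3l2 (9.95 CPM) were within the saline range, while Cndp2 (742 CPM) was above it. No gene passed among 24 of cholesterol synthesis (median 0.60, 0.70 with 8 libraries), 22 of fatty acid oxidation (median 0.36, 0.65 with 8 libraries), 23 of glycolysis and the hypoxia response (median 0.43, 0.46 with 8 libraries) and 79 respiratory chain subunits (median 0.16, 0.45 with 8 libraries). Apoe and Fabp5 were the 2 risers of 27 genes of lipid uptake, storage and efflux (median 0.32, 0.51 with 8 libraries). Lpl, lipoprotein lipase, stood at 618, 313, 923 and 604 CPM in saline and 1195, 1928, 1761 and 876 CPM after bleomycin and did not pass (1.16, adjusted p 0.0618, with 8 libraries 1.22, adjusted p 0.230).

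Division genes were mostly higher, though no gene of the 33-gene cell cycle list passed with 6 or 8 libraries. Its median was 1.12 (1.06 with 8 libraries), beside -0.14 over all genes (0.08 with 8), and 30 of the 33 lay above 0 in both fits. Mki67, the proliferation marker, was at 33.1, 0, 12.9 and 13.3 CPM in saline and 62.2, 103, 74.3 and 14.2 CPM after bleomycin (1.98, adjusted p 0.0875, with 8 libraries 1.88, adjusted p 0.267), and did not pass. Nor did Bub1b, a spindle checkpoint kinase (1.89, adjusted p 0.0820, with 8 libraries 1.69, adjusted p 0.410). Without saline WT 1 as well, 12 of the 33 rose, among them Birc5, Ccna2, Cdk1, Mcm6, Mki67, Rrm2 and Ube2c. Outside the list, 2 genes of mitosis were called with 6 libraries. Kif22, a chromosome-arm kinesin, stood at 6.08, 0, 2.56 and 8.69 CPM in saline and 27.96, 33.4, 36.4 and 2.49 CPM after bleomycin (log2 fold change 2.48, SE 0.45, adjusted p 0.0482, with 8 libraries 2.23, adjusted p 0.254). Cdca3, a trigger of mitotic entry, stood at 6.81, 64.9, 13.8 and 14.05 CPM in saline and 41.6, 42.1, 48.4 and 68.1 CPM after bleomycin (log2 fold change 1.90, SE 0.33, adjusted p 0.0424, with 8 libraries 1.40, adjusted p 0.353). In bleomycin WT 4, Kif22 was within the saline range. Sapcd2, a regulator of spindle orientation, had 0 counts in saline and 237 in bleomycin WT, at least 37.3-fold higher (42.1-fold with 6 libraries, against a floor of 3 counts over the group), all of them in bleomycin WT 1 to 3.

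**Figure D3:**
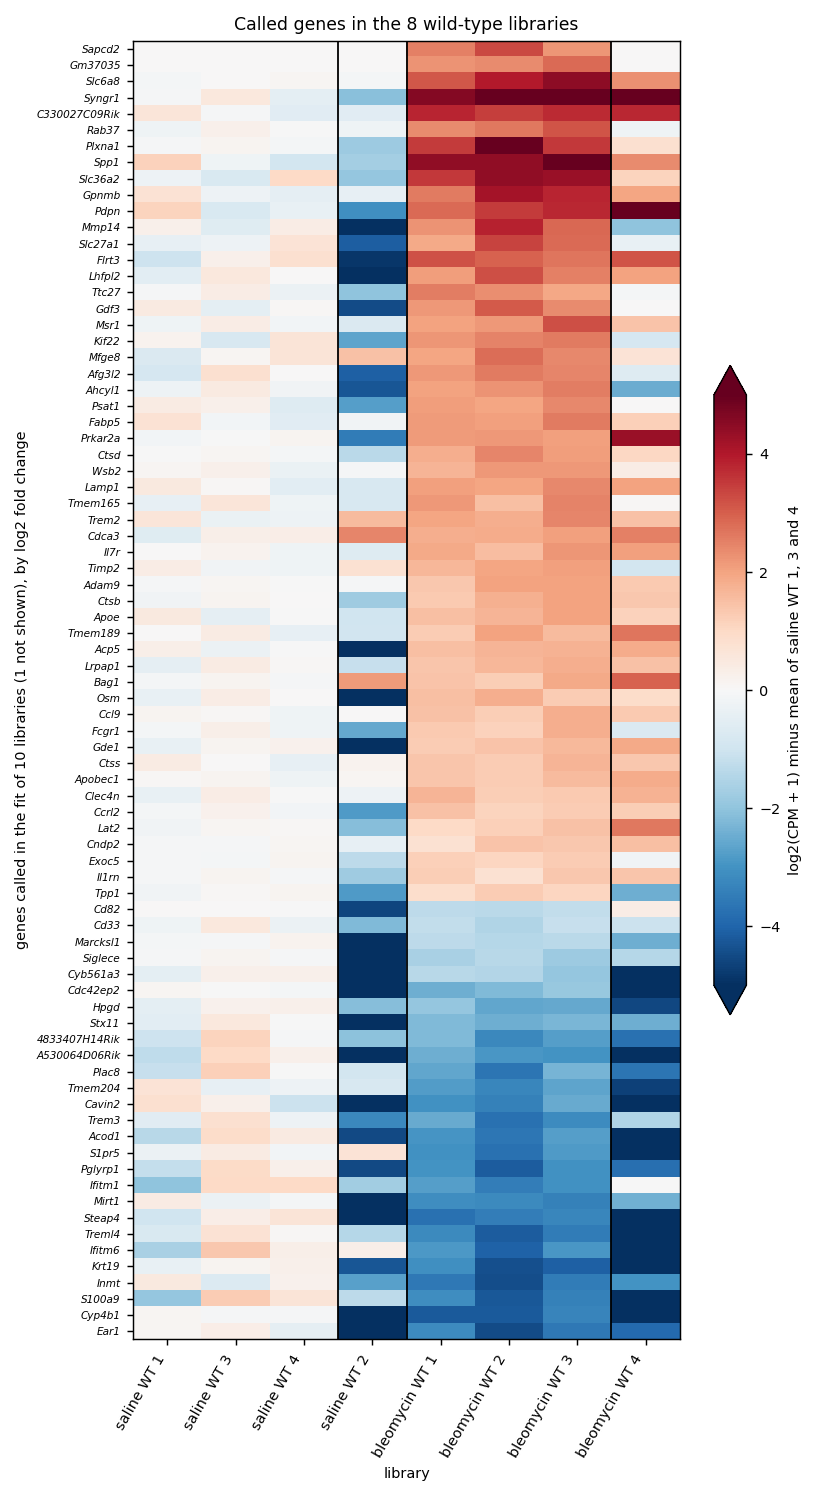
Level of the genes called without saline WT 2 and bleomycin WT 4 (rows, ordered by fold change; 1 gene is not shown) in the 8 saline WT and bleomycin WT libraries (columns), as log2(CPM + 1) minus the mean of saline WT 1, 3 and 4, from blue (lower) to red (higher). Bleomycin WT 1 to 3 are apart from saline WT 1, 3 and 4 in every row, but the rows were picked by a test on these libraries. Of all genes tested, 10.9% were apart in the higher direction and 9.72% in the lower. Bleomycin WT 4 lies below the rest of its group for 32 of the 54 rises.

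The falls called were larger than the rises called (a description, not a test), with a median of -3.29 over 27 genes against 2.09 over 54; 22 of the falls and 31 of the rises exceeded 4-fold. All 27 were lower in bleomycin WT 1 to 3 than in saline WT 1, 3 and 4. Among all 18812 genes, 9.72% were apart in that direction and 10.9% in the other. Saline WT 1 was the lowest of the 3 saline libraries for 18 of the 27 falls and saline WT 3 the highest for 16. In bulk libraries, fewer cells of a type and less RNA per cell cannot be told apart.

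Genes of non-classical monocytes, which patrol the vessels and carry much Cx3cr1, lay lower after bleomycin. Of 21 tested, 2 fell, 0 rose, 2 lay above 0 and the median was -1.55 (-1.48 with 8 libraries and no call). Treml4, a receptor of these monocytes, was at 155, 97.3, 430.3 and 272 CPM in saline WT 1 to 4 and 27.96, 13.8, 22.6 and 0.178 CPM in bleomycin WT 1 to 4 (log2 fold change -3.75, SE 0.52, adjusted p 0.0169; -3.90, SE 0.93, adjusted p 0.181 with 8), and all 8 libraries kept the groups apart, as for 0.929% of all genes tested in this direction. Pglyrp1, which binds bacterial peptidoglycan, was at 117, 10.8, 518 and 323 CPM in saline and 33.4, 14.3, 32.3 and 18.8 CPM after bleomycin (log2 fold change -3.59, SE 0.53, adjusted p 0.0240, with 8 libraries -3.32, adjusted p 0.174); here the shallow saline WT 2 fell among the bleomycin values. S1pr5, a sphingosine 1-phosphate receptor needed for the exit of non-classical monocytes and NK cells into the blood, was in no list and fell from 37.7, 75.7, 63.3 and 42.7 CPM to 4.79, 2.59, 5.76 and 0 CPM (log2 fold change -3.47, SE 0.47, adjusted p 0.0169, with 8 libraries -4.01, adjusted p 0.174). Adgre4 stood at 69.3, 119, 534 and 235 CPM in saline and 25.1, 26.9, 15.5 and 44.8 CPM after bleomycin and did not pass (-3.64, adjusted p 0.0597, with 8 libraries -3.11, adjusted p 0.167), nor did Cd300e (-4.54, adjusted p 0.0542, with 8 libraries -4.58, adjusted p 0.204). When saline WT 1 was left out as well, 9 of the 21 fell: Ace, Adgre4, Cd300e, Ceacam1, Dusp16, Eno3, Pglyrp1, Spn and Treml4. That fit keeps saline WT 3 and 4 alone, the saline libraries with the most Treml4, Pglyrp1 and Adgre4. Of 24 classical monocyte genes, Plac8 fell (136, 162, 691 and 302 CPM in saline and 49.03, 23.05, 59.3 and 23.6 CPM after bleomycin; log2 fold change -3.11, SE 0.55, adjusted p 0.0478, with 8 libraries -3.07, adjusted p 0.101) and the median was -0.50 (-0.16 with 8 libraries), which became 0.06 without saline WT 3. Ccr2, the receptor by which classical monocytes leave the marrow, stood at 212, 43.2, 448 and 152 CPM in saline and 603, 559, 288 and 1588 CPM after bleomycin and did not pass (0.82, adjusted p 0.385, with 8 libraries 1.79, adjusted p 0.239).

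Genes of alveolar macrophage identity lay mostly lower after bleomycin. Of 30 tested, Ear1 and Krt19 fell, 21 lay below 0 and the median was -0.78 (-0.69 with 8 libraries). The 1 riser was Spp1, which is also in the scar-associated list and was the only call with 8 libraries. Ear1, an RNase of the eosinophil-associated family that alveolar macrophages make, was at 34.5, 0, 40.2 and 23.3 CPM in saline and 2.696, 0.494, 1.79 and 1.24 CPM after bleomycin (log2 fold change -4.33, SE 0.73, adjusted p 0.0411, with 8 libraries -4.10, adjusted p 0.162). Krt19, a keratin that is also an epithelial marker, was at 176, 10.8, 253 and 274 CPM in saline and 26.4, 9.95, 12.7 and 0.711 CPM after bleomycin (log2 fold change -3.86, SE 0.43, adjusted p 0.0154, with 8 libraries -3.88, adjusted p 0.174). Fabp1 (31.9, 0, 62.9 and 60.4 CPM in saline and 2.497, 0.371, 1.87 and 0 CPM after bleomycin) and Krt79 (63.2, 184, 161 and 85.6 CPM in saline and 8.79, 1.85, 7.95 and 0.533 CPM after bleomycin) had fold changes of -5.06 and -4.08 and did not pass (adjusted p 0.103 and 0.0564, and 0.201 and 0.101 with 8 libraries). In 27 genes of resident interstitial macrophages Apoe alone rose, and the median was -0.01 (0.21 with 8 libraries) and above 0 in 11 of 18 alternatives with 6. Folr2 (286, 378, 73.7 and 219 CPM in saline and 94.3, 47.2, 111 and 175 CPM after bleomycin; -1.23, adjusted p 0.400, with 8 libraries -1.14, adjusted p 0.395) and Lyve1 (-1.84, adjusted p 0.258, with 8 libraries -2.23, adjusted p 0.222), receptors of vessel-associated macrophages, did not pass.

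Other falls were single genes, alone in their list or in no list, set side by side here after their values were seen. Acod1, which makes itaconate, was at 291, 32.4, 1429 and 1046 CPM in saline and 98.1, 60.3, 113 and 9.77 CPM after bleomycin (log2 fold change -3.36, SE 0.49, adjusted p 0.0217, with 8 libraries -3.33, adjusted p 0.201) and was the 1 call among 24 inflammatory cytokine and NF-kB feedback genes. That list did not lie to one side: its median was -0.11, 0.20 with 8 libraries, 0.16 with no filter on low counts, and between 0.01 and 0.14 when any 1 of saline WT 1, 3 and 4 or bleomycin WT 1 to 3 was left out. Siglece and Cd33, receptors for sialic acids, fell by 1.66 (with 8 libraries -1.26, adjusted p 0.380) and 1.37 (with 8 libraries -0.99, adjusted p 0.349). Cd82, the 1 call among 25 tetraspanins, was within a narrow band in each group (286, 287 and 278 CPM in saline WT 1, 3 and 4 and 113, 112 and 119.8 CPM in bleomycin WT 1 to 3), but bleomycin WT 4 held 367 CPM, above all of saline (log2 fold change -1.32, SE 0.18, adjusted p 0.0169, with 8 libraries -0.31, adjusted p 0.867). Hpgd, the enzyme that inactivates prostaglandins, was at 238, 75.7, 386 and 391 CPM in saline and 85.1, 53.4, 55.3 and 12.97 CPM after bleomycin (log2 fold change -2.40, SE 0.38, adjusted p 0.0329, with 8 libraries -2.42, adjusted p 0.201). Stx11, a syntaxin of secretory lysosomes in immune cells, fell (-2.41, with 8 libraries -2.05, adjusted p 0.254). Steap4, a metalloreductase, fell (-3.75, with 8 libraries -3.75, adjusted p 0.201). Il1b and Tnf are among the inflammatory genes that did not pass (-0.15, adjusted p 0.855, with 8 libraries -0.10, adjusted p 0.947; -0.39, adjusted p 0.558, with 8 libraries 0.54, adjusted p 0.730).

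Neutrophil markers lay lower after bleomycin. S100a9, a calprotectin subunit abundant in neutrophils and classical monocytes, was at 1298, 1989, 12137 and 7791 CPM in saline WT 1 to 4 and 582, 264, 475 and 49.9 CPM in bleomycin WT 1 to 4 (log2 fold change -4.01, SE 0.67, adjusted p 0.0407, with 8 libraries -4.08, adjusted p 0.101). It was the 1 call of 16 neutrophil markers, of which 15 lay below 0 (median -3.08, -3.18 with 8 libraries). Together they summed to 2724, 3729, 31095 and 18836 CPM in saline WT 1 to 4 and 1716, 862, 1441 and 628 CPM in bleomycin WT 1 to 4, none at 0 in either group, so saline WT 3 and 4 stood well above saline WT 1 and 2. Without saline WT 1 as well, 11 of the 16 fell, including Csf3r, Cxcr2, Ly6g, Retnlg and S100a8. That fit keeps only saline WT 3 and 4, the saline libraries with the high sums. Trem3, a myeloid activating receptor, was at 74.7, 10.8, 193 and 93.9 CPM in saline and 18.3, 7.35, 11.7 and 38.03 CPM after bleomycin (log2 fold change -3.29, SE 0.47, adjusted p 0.0217, with 8 libraries -2.37, adjusted p 0.219). Ifitm6, an interferon-induced transmembrane protein of myeloid cells, was at 30.9, 119, 244 and 118 CPM in saline and 12.4, 4.94, 11.9 and 0.533 CPM after bleomycin (-3.75, with 8 libraries -4.10, adjusted p 0.147). Ifitm1 fell among the 6 libraries (-3.61, with 8 libraries -1.80, adjusted p 0.334), while bleomycin WT 4 had 249.9 CPM, above saline WT 1 and 2. Acod1, Plac8, Pglyrp1 and Treml4 above share the order of saline WT 3, 4 and 1, as do S1pr5, Stx11 and Siglece. Krt19, Steap4, Hpgd, Inmt and Cavin2 have other orders. These genes were picked with their values in view, and the full order was not counted over all falls. The part of neutrophils in these falls was not tested.

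Markers of lung epithelium lay lower too, and so did those of endothelium among the 6 libraries. Epithelial markers summed to 2915, 2032, 2459 and 2750.5 CPM in saline WT 1 to 4 and 1145, 601, 623 and 1183 CPM in bleomycin WT 1 to 4, with no overlap of the groups and none at 0; Krt19 was the 1 call of 17 (median -1.10, -1.51 with 8 libraries). Endothelial markers summed to 517, 281, 709.5 and 542 CPM in saline WT 1 to 4 and 199, 181, 297 and 1009.9 CPM in bleomycin WT 1 to 4. Calcrl alone held 477 CPM of the sum in bleomycin WT 4. Among the endothelial markers, 0 of 15 were called and 0 of 15 lay above 0 with 6 libraries (median -1.77, -1.59 with 8 libraries). Inmt, a methyltransferase abundant in lung fibroblasts, was at 307, 32.4, 135 and 258 CPM in saline and 17.5, 9.14, 18.7 and 27.01 CPM after bleomycin (log2 fold change -3.98, SE 0.59, adjusted p 0.0240, with 8 libraries -3.38, adjusted p 0.146) and was the 1 call of 18 fibroblast markers, which summed to 927, 746, 900.3 and 1284 CPM in saline WT 1 to 4 and 773, 1159.8, 761 and 868 CPM in bleomycin WT 1 to 4. Cyp4b1, a cytochrome P450 of lung epithelium, was at 85.6, 0, 76.4 and 77.3 CPM in saline and 3.395, 3.34, 7.14 and 0 CPM after bleomycin (log2 fold change -4.13, SE 0.62, adjusted p 0.0246, with 8 libraries -4.17, adjusted p 0.201). Cavin2, a coat protein of caveolae, fell (-3.28, with 8 libraries -3.31, adjusted p 0.219), and so did Tmem204, a membrane protein of endothelium (-3.24, with 8 libraries -3.42, adjusted p 0.174). The part of such cells in these falls was not tested. Eosinophil, basophil and mast cell markers summed to 155, 21.6, 1932 and 1322 CPM in saline WT 1 to 4 and 198, 142, 200.2 and 841 CPM in bleomycin WT 1 to 4, with Mcpt8 and Il13 at 0 in saline. Most of the high sums was 1 gene, Hdc, at 1749 and 1191 CPM in saline WT 3 and 4 and 717 CPM in bleomycin WT 4. Only 6 of the 18 markers reached 10 CPM in any of the 8 libraries. B and plasma cell markers summed to 1146, 12420.2, 2039.8 and 3378 CPM in saline WT 1 to 4 and 1769, 1638, 653 and 2793 CPM in bleomycin WT 1 to 4, of which 11469 CPM in saline WT 2 came from Ebf1.

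**Figure D4:**
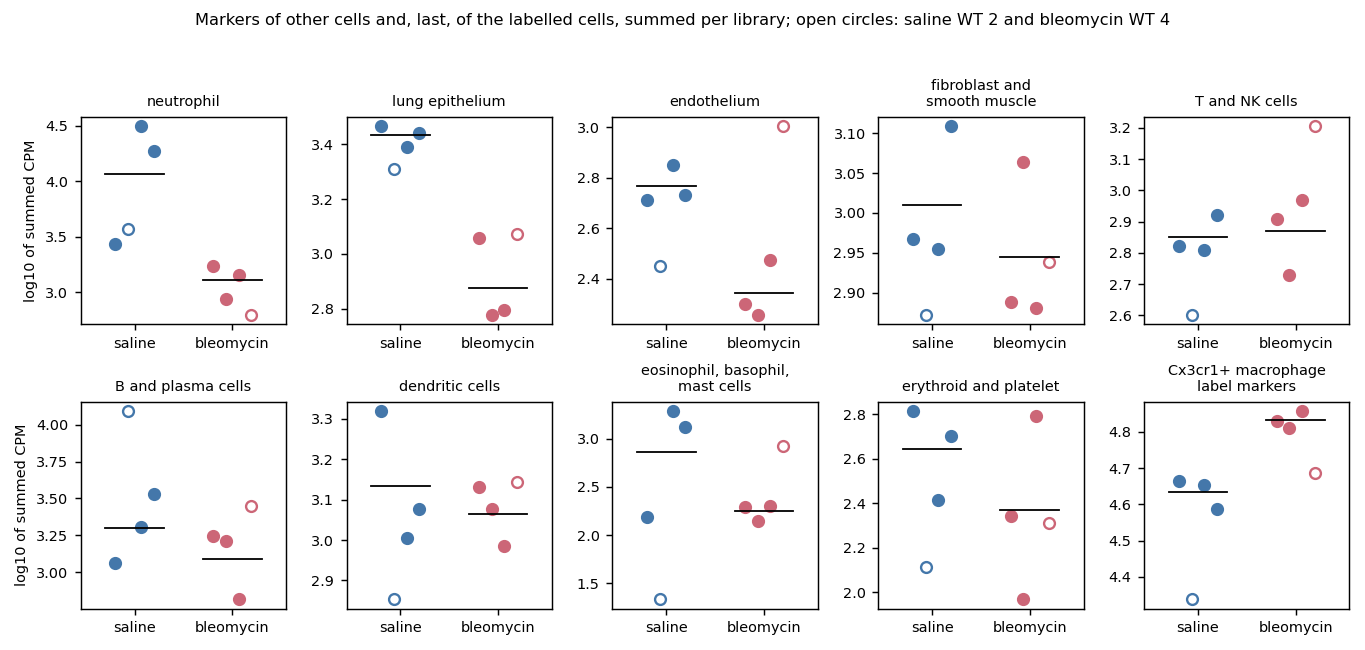
The log10 of the summed CPM (vertical axis) of each list of markers of other cell types, and last of the labelled cells, in every saline WT and bleomycin WT library (points; open for saline WT 2 and bleomycin WT 4; bars are means of the filled points). Neutrophil and epithelial sums are lower in all bleomycin WT libraries than in all saline WT libraries, and the endothelial sum of bleomycin WT 4, 1009.9 CPM, is the highest of its panel.

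The ETS core GGAAGT, read by the myeloid factor PU.1, was in 12 of the 24 falls with a promoter in the table (50.0%), in 8 of 36 risers (22.2%) and in 28.0% of the promoters of all genes tested, counting both strands. It was in 8 of 15 neutrophil marker promoters (53.3%). The 250 bases before the start of 2 falls and of Spp1 are shown, as an abundant riser and a falling gene of neutrophils and of monocytes that hold it. In Spp1 (chr5:104434861-104435110, plus strand) the match begins 111 bases before the start. In S100a9 (chr3:90695722-90695971, minus strand) it begins 188 bases before the start, and Treml4 (chr17:48264045-48264294, plus strand) has the reverse complement ACTTCC 46 bases before it. Capitals mark the matches, in GRCm38.p6 promoters from RefSeq.
Spp1: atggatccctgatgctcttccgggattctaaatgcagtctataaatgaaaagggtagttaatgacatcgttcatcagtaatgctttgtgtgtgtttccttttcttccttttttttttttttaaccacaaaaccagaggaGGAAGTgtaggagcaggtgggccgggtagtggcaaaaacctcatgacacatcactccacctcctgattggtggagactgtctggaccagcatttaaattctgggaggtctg
S100a9: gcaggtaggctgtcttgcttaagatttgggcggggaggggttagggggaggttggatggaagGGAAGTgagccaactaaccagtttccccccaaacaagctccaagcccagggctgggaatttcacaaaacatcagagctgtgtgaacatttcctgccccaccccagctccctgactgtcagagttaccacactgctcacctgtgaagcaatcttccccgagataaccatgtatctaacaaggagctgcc
Treml4: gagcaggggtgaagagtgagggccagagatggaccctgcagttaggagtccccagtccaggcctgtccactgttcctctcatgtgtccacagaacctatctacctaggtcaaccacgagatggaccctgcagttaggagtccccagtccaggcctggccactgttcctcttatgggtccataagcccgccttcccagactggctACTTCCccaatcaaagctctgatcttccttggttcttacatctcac
A match says only that these letters are in the window, and none of the promoter shares was tested.

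Many programmes known in macrophages held no call. With 6 libraries these were 26 interferon-stimulated genes (median -0.03, 0.18 with 8 libraries), 24 genes of alternative activation (median 0.02, 0.17 with 8 libraries), 22 Nrf2 targets (median -0.06, -0.18 with 8 libraries), and 22 genes of the p53 and DNA damage response (median -0.44, 0.29 with 8 libraries). The others were 26 immediate early and dissociation stress genes (median 0.01, 0.24 with 8 libraries), 12 toll-like receptors (median 0.21, 0.17 with 8 libraries), 29 integrins (median -0.67, -0.81 with 8 libraries) and 65 cytosolic ribosomal proteins (median -0.01, -0.02 with 8 libraries). In 14 genes of MHC class II presentation, Ctss alone rose (median -0.27, 0.05 with 8 libraries). Of these 9 lists, the toll-like receptor and p53 lists alone kept the sign of their median in all 18 alternatives with 6 libraries, and both changed it in some of the 21 with 8. The integrin median was above 0 with limma-voom (0.08), at a mean of at least 10 CPM (0.05), with the replicate block (0.18) and without saline WT 1 (0.0014) or 4 (0.14). Arg1, arginase 1, the best known alternative activation enzyme, was at 20.4, 0, 0.513 and 10.6 CPM in saline and 295, 161, 722 and 345 CPM after bleomycin and did not pass (5.23, adjusted p 0.0618, with 8 libraries 5.32, adjusted p 0.0853); it rose once saline WT 1 was also left out. Cdkn1a, the p53 target p21, was at 811, 249, 873 and 769.8 CPM in saline and 661, 932, 463 and 729.7 CPM after bleomycin (-0.28, adjusted p 0.599, with 8 libraries 0.03, adjusted p 0.982).

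**Figure D5:**
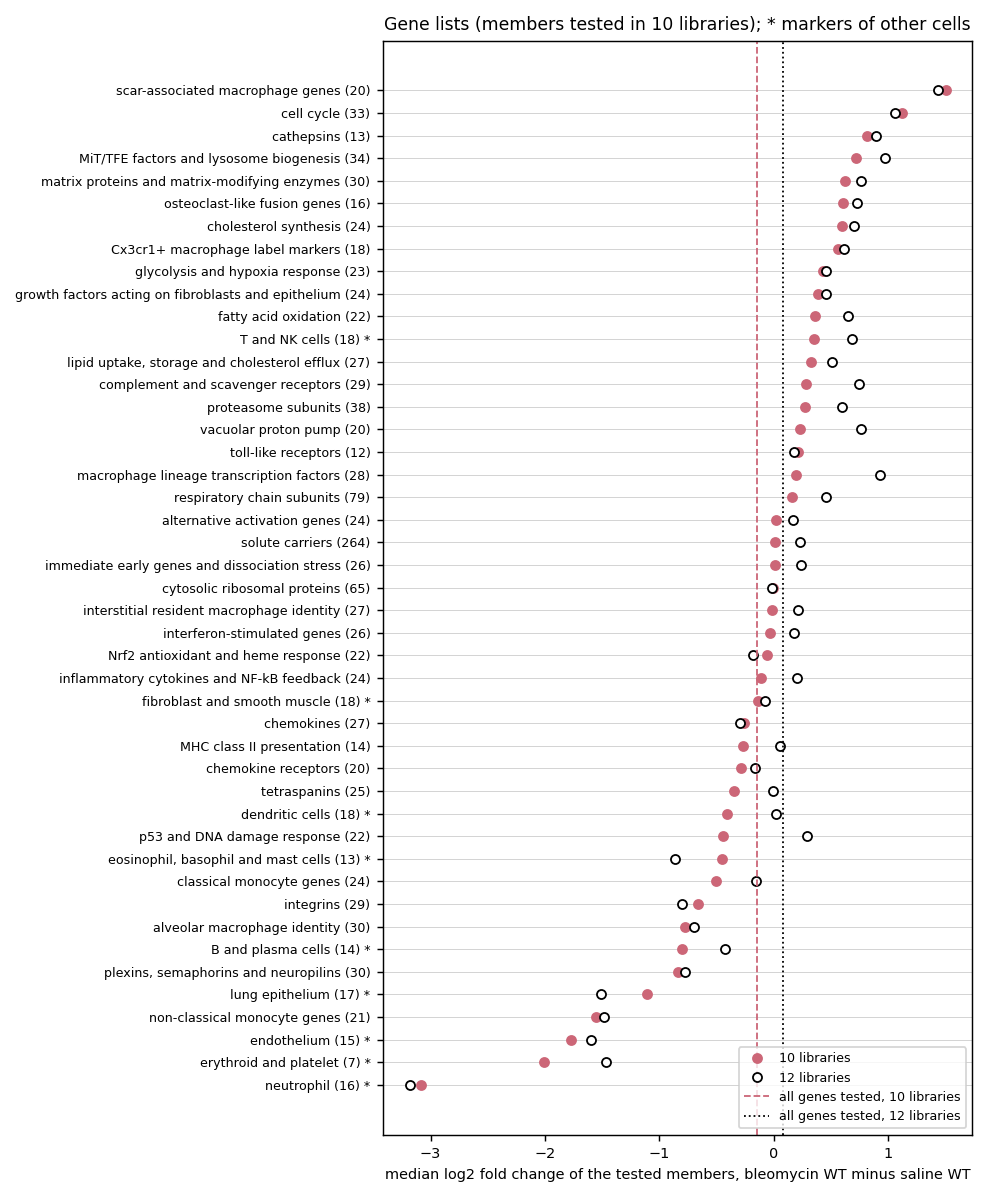
Median log2 fold change of bleomycin WT against saline WT for each gene list, with all 8 libraries of the comparison (12 in the fit) and without saline WT 2 and bleomycin WT 4 (10 in the fit); vertical lines mark the medians over all genes tested (0.08 and -0.14). The scar-associated and cell cycle lists lie highest and the neutrophil list lowest.

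The 2 libraries left out were placed against the calls made without them. The called genes were picked by their levels in saline WT 1, 3 and 4 and bleomycin WT 1 to 3. The counts below were not made over all genes tested, so they have no baseline. Bleomycin WT 4 was above all of saline WT 1, 3 and 4 for 37 of the 54 rises and below them for 25 of the 27 falls, but it was below its own group for 32 of the rises. Saline WT 2 was below bleomycin WT 1 to 3 for 52 of the 54 rises, with 0 counts for 22 of these genes, and above them for 9 of the 27 falls, with 0 counts for 11. The 4 bleomycin KO libraries lay above saline WT 1, 3 and 4 for all 54 rises and below them for all 27 falls. Both comparisons use the same saline libraries, and the bleomycin KO libraries share in the spread behind the calls, so their levels are set beside and not counted as a repeat. Spp1, for example, was at 11141, 13749.5, 11702 and 10125 CPM in bleomycin KO 1 to 4, Ctsd at 8271, 8826, 9118 and 7969.7 CPM and Treml4 at 20.9, 9.43, 28.2 and 27.2 CPM.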

How the data were processed

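RNA of Cx3cr1+ lung macrophages was made into cDNA with SMART-Seq v4 and libraries with Nextera XT, then sequenced in single-end 50-base reads, per the labels' protocols. The kit does not mark strand, so a gene and its antisense partner cannot be told apart. GSNAP, limma and Partek, with GRCm38 and mm10, are named in the submitters' processing notes, with neither versions nor settings given in the sources used here. In the deposited table are the authors' raw counts (whole numbers) of 52636 Ensembl genes, of which 11872 have no count. Genes with near-identical copies are uncertain: Gapdh stood at 0 to 4.02 CPM. Coordinates are from GENCODE M21 (GRCm38); 85.6% of 52489 matched genes have the same start and end in the deposited gene table. No 2 libraries agreed within sampling noise (lowest chi-square per degree of freedom 25.1).

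CPM were computed from the deposited counts with TMM-scaled library sizes of all 12 libraries. The tests were edgeR 4.0.16 quasi-likelihood fits in R 4.3.3 (filterByExpr by group, TMM, robust), with group as the only term, on 12 libraries and on 10 without saline WT 2 and bleomycin WT 4; adjusted p are Benjamini-Hochberg over all genes. Standard errors are the log2 fold change over the square root of F. DESeq2 1.42.0, run with no filter on low counts, and limma 3.58.1 were alternatives. The fits were tested on simulated counts, with the changed genes drawn from those above the median abundance. With 12 libraries 3% of 100 genes changed 4-fold and 71% of 100 changed 16-fold were recovered over 16679 genes (3 false of 77 calls), with 10 libraries 29% and 80% over 18812 genes (3 false of 112). Intervals cover counting error only.

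Members and lists were chosen with earlier results of these data known; 648 of 651 listed symbols matched. Lists got no test; their medians were recomputed under every alternative. Genes were named by rule: all calls with 12 libraries; the 15 highest and 15 lowest fold changes of the fit of 10 with at least 10 CPM and no overlap; 2 members per list by smallest p, or by abundance for other cells; and the label markers. Some items are not reported here. Any other gene was picked with its values in view.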

Additional observations from a re-analysis of the deposited data

Results flagged for a closer look

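Of 90 sets of 4 libraries checked (named genes, summed marker lists and library measures in each group), 6 had 1 library whose gap to the nearest exceeded Dixon's critical value for 4 samples as a share of their range; chance gives about 1 in 20. Saline WT 1 stood apart for Gpnmb, at 210.1 CPM against 107 CPM in the next saline library. Saline WT 2 stood apart for Cyp4b1, with 0 CPM against 76.4 CPM, and for the share of its counts in the 50 most abundant genes, 33.9% against 21.3%. Bleomycin WT 4 stood apart for Ifitm1 (249.9 CPM against 36.4 CPM), for the summed endothelial markers (1009.9 CPM against 297 CPM) and for the summed eosinophil, basophil and mast cell markers (841 CPM against 200.2 CPM). In that library Calcrl held 477 CPM of the endothelial sum, and Hdc 717 CPM of the eosinophil, basophil and mast cell sum. No cause was tested for any of these.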

How the results depend on the processing

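The number of calls depended on most choices. With all 8 libraries (4 calls), there was 1 call with RLE scaling, 599 with DESeq2, 319 with limma-voom and quality weights, 780 with no filter on low counts, 0 on the WT libraries alone, and 81 without saline WT 2 and bleomycin WT 4. It stayed within 1.5 times with limma-voom (6) and at a mean of at least 10 CPM (3). Leaving out 1 library gave 1 to 11 calls. Without saline WT 2 and bleomycin WT 4 (81 calls), there were 1420 with DESeq2, 309 with quality weights, 282 with no filter, 225 at a mean of at least 10 CPM and 0 on the WT libraries alone, and leaving out 1 more library gave 4 to 522. It stayed within 1.5 times with RLE scaling (83), limma-voom (95) and without saline WT 3 (73). The replicate block, which pairs libraries by their number, left 2 calls with 8 and 1 with 6 libraries. The titles do not say whether the numbers pair the libraries. Same-numbered deviations correlated at 0.06, -0.06, 0.02 and -0.12 with 8 libraries and at 0.15 and -0.07 with 6. Differently numbered ones correlated at -0.14 to 0.21 with 8 libraries and at -0.24 to 0.28 with 6. With so few pairs and outlying libraries among them, these values cannot decide whether the numbers mark a shared origin. One named gene changed sign with a call: the log2 fold change of Timd4 was 0.03 with 8 libraries and -2.54 with limma-voom and quality weights. With 8 libraries, values of named genes under the alternatives kept direction and side of the threshold 2249 times, gained a call 182 times and lost one 39 times; with 6 libraries these numbers were 1661, 109 and 351. Of 45 gene lists, 27 kept the sign of their median in all 18 alternatives with 6 libraries and 25 in all 21 with 8, and 24 did both with 1 sign; among these are the scar-associated, cathepsin, lysosome, cell cycle, non-classical monocyte, neutrophil, epithelial and endothelial lists. Depth limits saline WT 2, where genes under 32.4 CPM can be missed.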
